A study of Homo sapiens with 4 samples.

Results

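Sites of the transcription factor TBX3 were examined at 10 genes for growth factor receptors of melanocytes and melanoma and for 1 of their ligands. The genes were KIT, EDNRB, ERBB3, MET, AXL, EGFR, NGFR, PDGFRB, FGFR1 and KITLG, and a site counted for a gene when the deposited annotation named that gene as nearest, at any distance. By this rule 31 of 32479 peak summits in replicate 1 and 44 of 40494 in replicate 2 belonged to them, or 0.0954% and 0.109%. The cells were 501mel, an established human melanoma line, and the protein was TBX3-3xHA, a TBX3 that carries the HA peptide tag. Chromatin of 2 samples was precipitated with an antibody to HA (clone 12CA5), and 2 input samples were sheared chromatin without precipitation, whose files were not analysed here. All samples came from this single line, and no agent or dose that set the level of tagged TBX3 is given in the labels used here. Nor do the labels say whether the replicates were separate cultures, so agreement between them may be technical. With 1 ChIP condition no test between conditions was possible, and RNA was not measured, so the cell type could not be checked against its markers.

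Melanocytes arise from the neural crest, and their migration, survival and maturation depend on signals received by cell surface receptors. KIT is the receptor tyrosine kinase for stem cell factor, the product of KITLG. EDNRB is the G protein-coupled receptor for endothelins, ERBB3 is a neuregulin receptor with little kinase activity of its own, and MET is the receptor for hepatocyte growth factor. These 4 are grouped here as receptors of the differentiated state. AXL, the receptor for GAS6, EGFR, the receptor for epidermal growth factor, NGFR, the low-affinity neurotrophin receptor, and PDGFRB, a receptor for platelet-derived growth factor, are known from melanoma cells in an invasive, less pigmented state. FGFR1 is a receptor for fibroblast growth factors. TBX3 belongs to the T-box family, whose members bind DNA with a T-box domain.

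The promoter of MET is shown because, of the promoters found, its upstream window was the only one to hold a summit of both replicates. Of the EDNRB promoter entries, an internal one far from the 5′ end of the gene is shown because weak summits lay just downstream of its start. A stretch of the PDGFRB promoter is shown because it held the letters of a T-box motif while no summit was near. Sequences are from RefSeq on GRCh38.p14, where 7 of the 10 genes were found, and they run 5′ to 3′ on the strand of the gene. In MET (chr7:116671946-116672195, plus strand) the capitals mark the 14 bases from the replicate 2 summit to the replicate 1 summit, which lay 82 and 69 bases upstream of the start. In EDNRB (chr13:77919683-77919932, minus strand) they mark the T-box core GGTGT, at 156 bases upstream. In PDGFRB (chr5:150155850-150155878, minus strand) they mark the T-box motif GGTGTGA, which began 22 bases upstream.
MET: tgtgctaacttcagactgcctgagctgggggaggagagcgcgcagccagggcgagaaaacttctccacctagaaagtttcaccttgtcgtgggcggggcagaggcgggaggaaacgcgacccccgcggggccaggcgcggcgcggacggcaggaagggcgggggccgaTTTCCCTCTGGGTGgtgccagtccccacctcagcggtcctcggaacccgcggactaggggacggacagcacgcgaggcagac
EDNRB: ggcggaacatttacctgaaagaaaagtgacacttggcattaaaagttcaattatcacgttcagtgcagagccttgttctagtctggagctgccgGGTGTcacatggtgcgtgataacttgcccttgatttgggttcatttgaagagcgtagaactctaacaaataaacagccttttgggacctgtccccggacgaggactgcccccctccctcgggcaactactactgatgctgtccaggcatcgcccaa
PDGFRB: aagcccatagtGGTGTGAgctcctgaggc

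The 250 bases upstream of a start were searched on both strands for GGTGTGA, for its core GGTGT, which every GGTGTGA contains, and for the E-box CACGTG. Of 35116 promoters in the RefSeq table, 2.76% held GGTGTGA, 32.2% held GGTGT and 6.34% held CACGTG. The MET window held none of these letters, with a GC content of 68.4% against a median of 58% over all promoters. The EDNRB window held 1 GGTGT and had a GC content of 50%. A match is a run of letters and not a measured site, and the absence of a match says only that the letters are not in this window.

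TBX3 sites were unevenly distributed over the 10 genes. In both replicates together, 7 genes had a summit, while AXL, NGFR and PDGFRB had none in either list. A region was called recurrent when a summit of each replicate was the nearest to the other and they lay within 200 bp. By this measure KIT had 9 recurrent regions, MET 7, EDNRB 3, ERBB3 2, EGFR 1 and FGFR1 1, a total of 23. KITLG had 1 summit in replicate 1 and 4 in replicate 2, none of them recurrent. KIT and MET together held 16 of the 23 regions.

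Of the 10 genes, 6 had at least 1 recurrent region (60%), where 28.6% of 19974 protein-coding genes had one. At least 2 regions were found at 4 of the 10 (40%), against 12.8% of protein-coding genes. A recurrent region lay within 10 kb of a start site at EDNRB, ERBB3, MET and FGFR1 (40%), against 10.1% of protein-coding genes. The genes were listed with earlier results of these data known, and no test was attached to these shares. As many recurrent regions as KIT or more were found at 119 protein-coding genes (0.596%), KIT included, and as many as MET or more at 240 (1.2%).

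**Figure D1:**
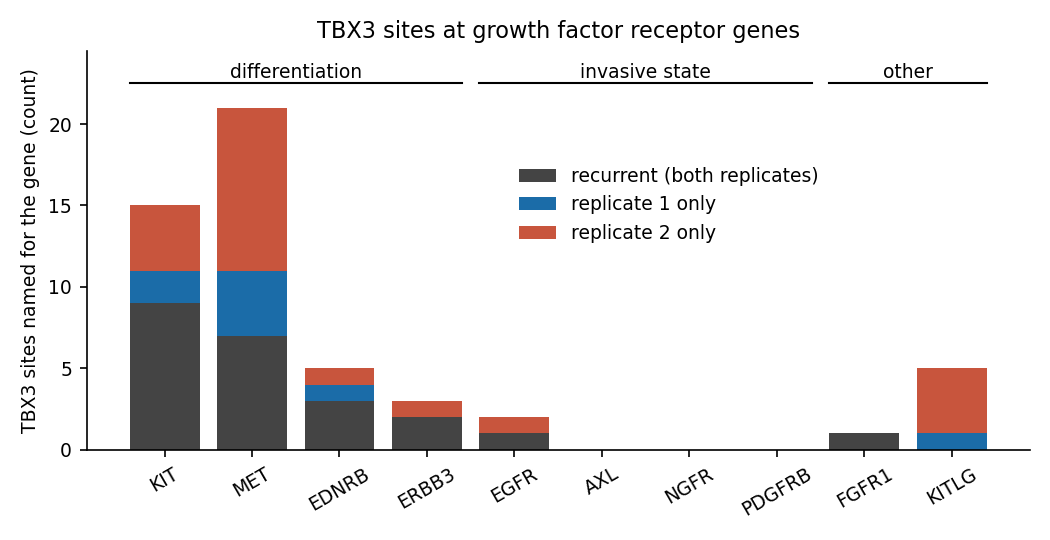
Number of TBX3 sites (vertical axis) named for each of the 10 genes, stacked as recurrent in both replicates (dark), replicate 1 only (blue) and replicate 2 only (red). MET and KIT carry most sites with 7 and 9 recurrent regions, and AXL, NGFR and PDGFRB have none.

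In replicate 1, 23 of the 31 summits of the 10 genes recurred (74.2%, 95% Wilson interval 56.8% to 86.3%), beside 69.9% of all summits in that list. In replicate 2, 23 of 44 recurred (52.3%, 37.9% to 66.2%), beside 56.1% of all summits. Both shares lay near those of the whole lists, and intervals cover counting error only. KITLG, the ligand gene, held 1 of the 31 summits and 4 of the 44, none of them recurrent. The 2 summits of a recurrent receptor region were a median of 23 bp apart and at most 106 bp apart, against a median of 28 bp over all 22702 recurrent regions.

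Receptors of the differentiated state carried more recurrent regions than those of the invasive state. The counts were 9 for KIT, 7 for MET, 3 for EDNRB and 2 for ERBB3, and 1 for EGFR and 0 for AXL, NGFR and PDGFRB. The 2 groups did not overlap: all 4 differentiation receptors had at least 2 regions, as 12.8% of protein-coding genes did. In the invasive group only EGFR had a region, where 28.6% of protein-coding genes had at least 1. The median protein-coding gene had 0, so the low counts of this group cannot be read as a lack of sites. The difference was a mean of 5 regions per gene more in the differentiation group, and ERBB3 and EGFR were separated by a single region. With summits paired within 50 bp, or with scores at or above the median of each list, EDNRB, ERBB3 and EGFR had 1 region each. When summits inside the gene span were counted per 100 kb, ERBB3 had 8.55, MET 4.76, EDNRB 3.75 and KIT 2.42, and EGFR had 0.519. When all recurrent regions within 50 kb of the gene span were counted whatever their name, MET had 10, KIT 7, EDNRB 4 and ERBB3 3. By that count EGFR also had 3 and AXL had 1, so the groups met at ERBB3 and EGFR, and NGFR and PDGFRB stayed at 0. The median protein-coding gene had 1 region by that count, and 48.4% had none.

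The space around a gene sets how many regions can be named for it, and it differed widely. The interval between the protein-coding neighbours of each gene was therefore set beside the mean density of 0.756 recurrent regions per 100 kb, taken over the autosomes and X together. MET lay in 301 kb between CAV1 and CAPZA2, which held 10 recurrent regions where the mean density gives 2.27. KIT lay in 780 kb between PDGFRA and KDR, which held 15 regions where the mean density gives 5.89. Around KIT and MET the regions were denser than this mean. ERBB3 had 2 regions in 59.9 kb, where the mean density gives 0.453. FGFR1 lay in 319 kb that held 5 regions, where the mean density gives 2.41, although only 1 of them was named for it.

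EDNRB had 6 regions in 834 kb, where the mean density gives 6.3, and EGFR had 4 regions in 606 kb, where it gives 4.58. In these wider intervals the number of regions was close to that given by the mean density, in spite of the difference in named regions between EDNRB and EGFR. AXL (55 kb), PDGFRB (53.4 kb) and NGFR (161 kb) had no region, where the mean density gives 0.416, 0.403 and 1.22. For these 3 genes of the invasive group the count of 0 thus differs from the mean density by at most 1.22 regions. The mean density is a description and not a test.

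**Figure D2:**
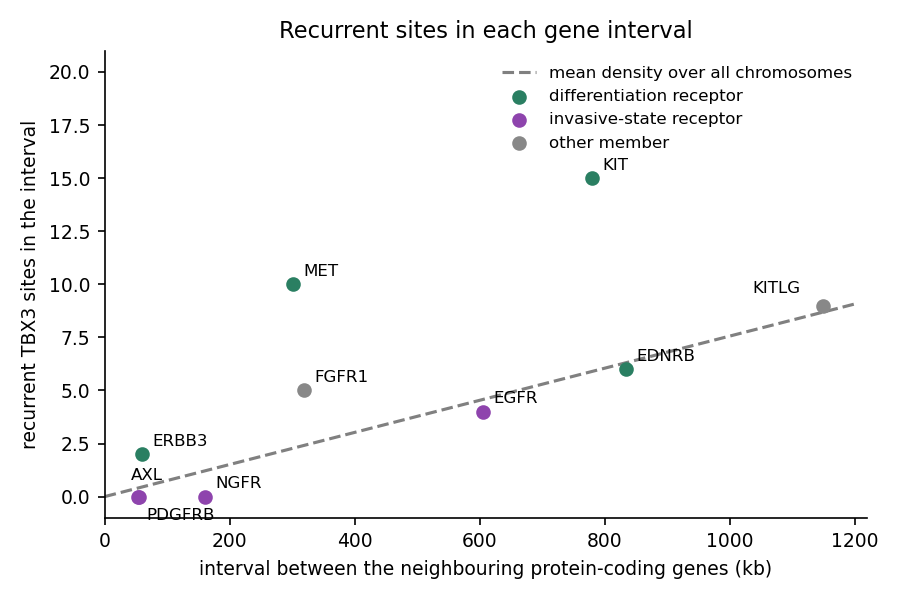
Recurrent TBX3 sites (vertical axis) in the interval between the protein-coding neighbours of each gene, against the length of that interval in kb; the dashed line is the mean density of 0.756 sites per 100 kb. MET, KIT, FGFR1 and ERBB3 stand above the line with 10, 15, 5 and 2 sites, whereas EDNRB, EGFR and KITLG lie close to it and AXL, NGFR and PDGFRB are at 0.

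Most KIT sites lay downstream of the gene and none at its promoter. No summit of either replicate named for KIT lay within 10 kb of its start, and the nearest recurrent region was 43.2 kb into the gene. KIT spans 54657957 to 54740715 on chromosome 4 in hg38. Of its 9 recurrent regions, 2 were inside this span and 7 lay past its end, from 0.506 kb to 103 kb beyond. They covered 142 kb from the first to the last.

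The 2 highest-ranked KIT regions were both intergenic and far downstream. The first had summits at 54784366 in replicate 1 and 54784326 in replicate 2, 43.7 kb past the end of the gene and 126438 bp from its start. Its deposited peak score was 288 in replicate 1 (rank 260) and 455 in replicate 2 (rank 198). The second had summits at 54843298 and 54843311, 103 kb past the end, with scores of 306 (rank 220) and 354 (rank 380). Both regions stood in the highest 1% of each list, and no other receptor region did. In each list that was 2 of 23 regions (8.7%, interval 2.42% to 26.8%), beside 1.44% and 1.79% of all recurrent regions. In the highest 5% the receptor shares were 8.7% in replicate 1 and 13% in replicate 2, beside 7.12% and 8.86%. The 2 KIT regions were 58.9 kb apart and 294 and 235 kb from KDR. KDR, the gene for a receptor of vascular endothelial growth factor, is the next protein-coding gene on that side.

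The region of KIT nearest to the start, with summits at 54701190 and 54701168, lay in intron 4 of 20 and scored 34.1 and 59.6. A second intronic region, in intron 7 of 20 at 54714839 and 54714856, scored 18.4 and 30. At the end of the gene, summits at 54741221 and 54741327 were annotated as a transcription termination site, with scores of 22.1 and 57.1. These 3 regions stood at score percentiles from 62.1 to 78.2 in the replicate 1 list, and from 71.4 to 84.6 in the other.

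The other 4 intergenic regions scored from 10.8 to 42.8 in replicate 1 and from 48.8 to 117 in replicate 2. They had replicate 1 summits at 54746398, 54769996, 54781938 and 54838475. The region at 54781938 differed most between the lists, with a score percentile of 43.8 in replicate 1 and 82.4 in replicate 2. A further pair of KIT summits, 54709216 (score 22.7) and 54709702 (score 75.2), lay 486 bp apart in neighbouring introns and so did not count as recurrent.

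MET had sites at its promoter and through the 5′ part of the gene. The span of MET is 116672196 to 116798377 on chromosome 7 in hg38, and its 7 recurrent regions covered 62.7 kb, all in the part from the promoter to intron 3. The promoter region, printed above, had summits at 116672127 and 116672114. It scored 64.3 (rank 3615) and 67.4 (rank 5474). The deposited distances of -232 and -245 bp refer to another start of MET than that of the promoter entry printed above.

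The highest-ranked MET region had summits at 116716805 and 116716804, a single base apart, in intron 2 of 20 and 44415 bp from the start. Its score was 104 in replicate 1 (rank 1924) and 214 in replicate 2 (rank 1119). Next to it in rank, a region in intron 3 of 20, at 116734830 and 116734886, scored 62.8 and 128. These 2 regions and the promoter were within the highest 25% of both lists.

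The other MET regions were weaker, with replicate 1 scores of 7.12 to 23.1 and replicate 2 scores of 18.3 to 39.7. Of these, 2 lay in intron 1 of 19, at 116687888 and 116695584 in replicate 1, and the latter fell in a MIR element, an old short interspersed repeat. Another was in exon 2 of 21, at 116699458, and another in intron 2, at 116709041. MET also had 4 summits in replicate 1 only and 10 in replicate 2 only. Those had low scores, from 3.34 to 5.76 in replicate 1 and from 3.68 to 13.1 in replicate 2, and 8 of the 10 in replicate 2 lay in repeats.

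**Figure D3:**
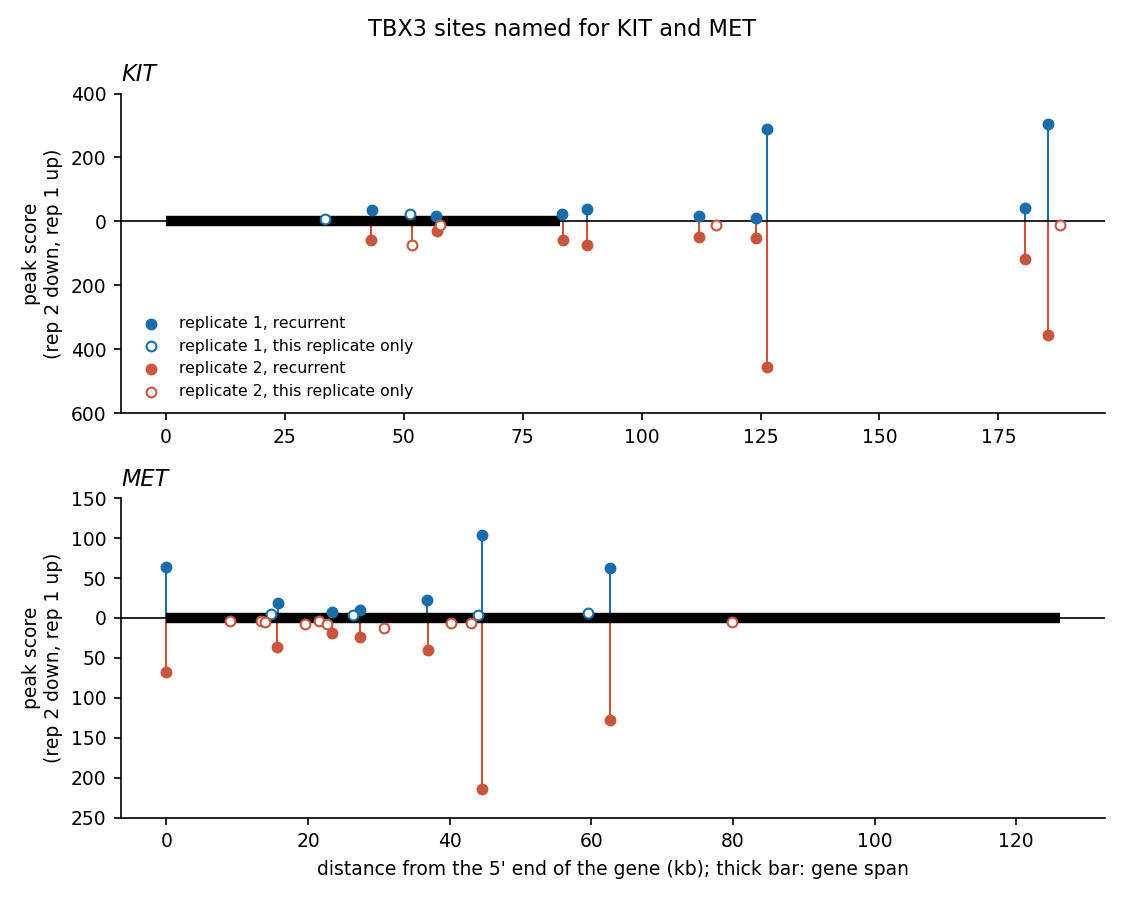
Peak score of each TBX3 summit named for KIT (top) and MET (bottom) against distance in kb from the 5′ end of the gene, with replicate 1 upward in blue, replicate 2 downward in red, filled points for recurrent summits and the gene span as a thick bar. The highest KIT scores, 288 to 455, stand at 126 and 185 kb, past the end of the gene, whereas the recurrent MET summits stand in the 5′ part of the gene.

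EDNRB, whose signal is needed for the melanocyte lineage, spans 77895487 to 77975527 on chromosome 13 and is read from the minus strand. Its highest-ranked region had summits at 77969503 and 77969514 in intron 1 of 7, 6220 and 6209 bp from a start site at the 5′ end of the gene. The scores were 62.8 (rank 3715) and 70.8 (rank 5193). The region nearest to a start was an internal promoter, with summits at 77919583 and 77919662, which lay 99 and 20 bases downstream of the RefSeq start shown above. It was far weaker, at 9.21 (rank 20618) and 11.5 (rank 22480). The third region, also in intron 1, scored 7.12 and 7.62, and so EDNRB had 1 strong and 2 weak recurrent regions.

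ERBB3 spans 56080108 to 56103505 on chromosome 12. Both of its recurrent regions were in intron 1 of a short transcript of 2 introns, close to the start. The stronger had summits at 56083155 and 56083188, 3047 and 3080 bp from the start, with scores of 47.3 (rank 5127) and 88.3 (rank 4086). The one nearest to the start, at 56081774 and 56081720, scored 9.83 (rank 19616) and 16.3 (rank 18426). A summit of replicate 2 alone, 17879 bp upstream in an Alu element, scored 7.36.

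EGFR was the only receptor of the invasive group with a named summit. It spans 55019017 to 55211628 on chromosome 7. Its recurrent region had summits at 55086703 and 55086715 in intron 1 of 21, with scores of 104 (rank 1930) and 144 (rank 2103). In rank it stood close to the strongest MET region in replicate 1 and below it in replicate 2. The region lay 67.7 kb into the gene, and the deposited distance of -23114 bp refers to an internal start. A further EGFR summit in replicate 2 alone scored 8.35. Inside the span there were also 2 summits named for EGFR-AS1, the antisense gene, at 55166913 in replicate 1 (score 6.41) and 55177917 in replicate 2 (score 19.6), neither of them recurrent. Between the protein-coding neighbours of EGFR there were 4 recurrent regions, but only 1 was named for it. The other names there were EGFR-AS1 and ELDR. In the EDNRB interval, 3 of 6 recurrent regions were named for EDNRB, and the other name was EDNRB-AS1. The count by name thus leaves out regions close by.

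AXL, NGFR and PDGFRB had no summit inside their spans or named for them in either list. The summit nearest to AXL was 38.2 kb from its span in replicate 1 and 38.1 kb in replicate 2, and it was named for CCDC97. For NGFR the nearest was 93.2 and 93.3 kb away, and for PDGFRB it was 164 kb away in both lists. No summit says only that no peak passed the threshold of the caller, which is not given in the sources used here. The read depth behind the lists is unknown, so no limit could be set on weaker signal.

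FGFR1 had a single recurrent region upstream of its start, outside the gene. Its summits, at 38473017 and 38473053 on chromosome 8, were 4183 and 4219 bp from a start site. The scores were 50.5 (rank 4772) and 88.8 (rank 4066). The replicate 2 summit was annotated in an L2 repeat and the replicate 1 summit was not.

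KITLG, which encodes the ligand of KIT, spans 88492793 to 88580471 on chromosome 12 and had no recurrent region. The single replicate 1 summit, 403 bp from the start in a CpG island, had a score of 2.3, close to the lowest score of 2.01 in that list. The replicate 2 summits scored 4.9 to 18.3, and the highest lay 164722 bp upstream in an Alu element. KIT thus had the most recurrent regions of these genes, 9, and KITLG had 0. A count of 0 was also that of AXL, NGFR and PDGFRB and the median over all protein-coding genes. The interval around KITLG held 9 recurrent regions in 1150 kb, where the mean density gives 8.69, all named for other genes.

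**Figure D4:**
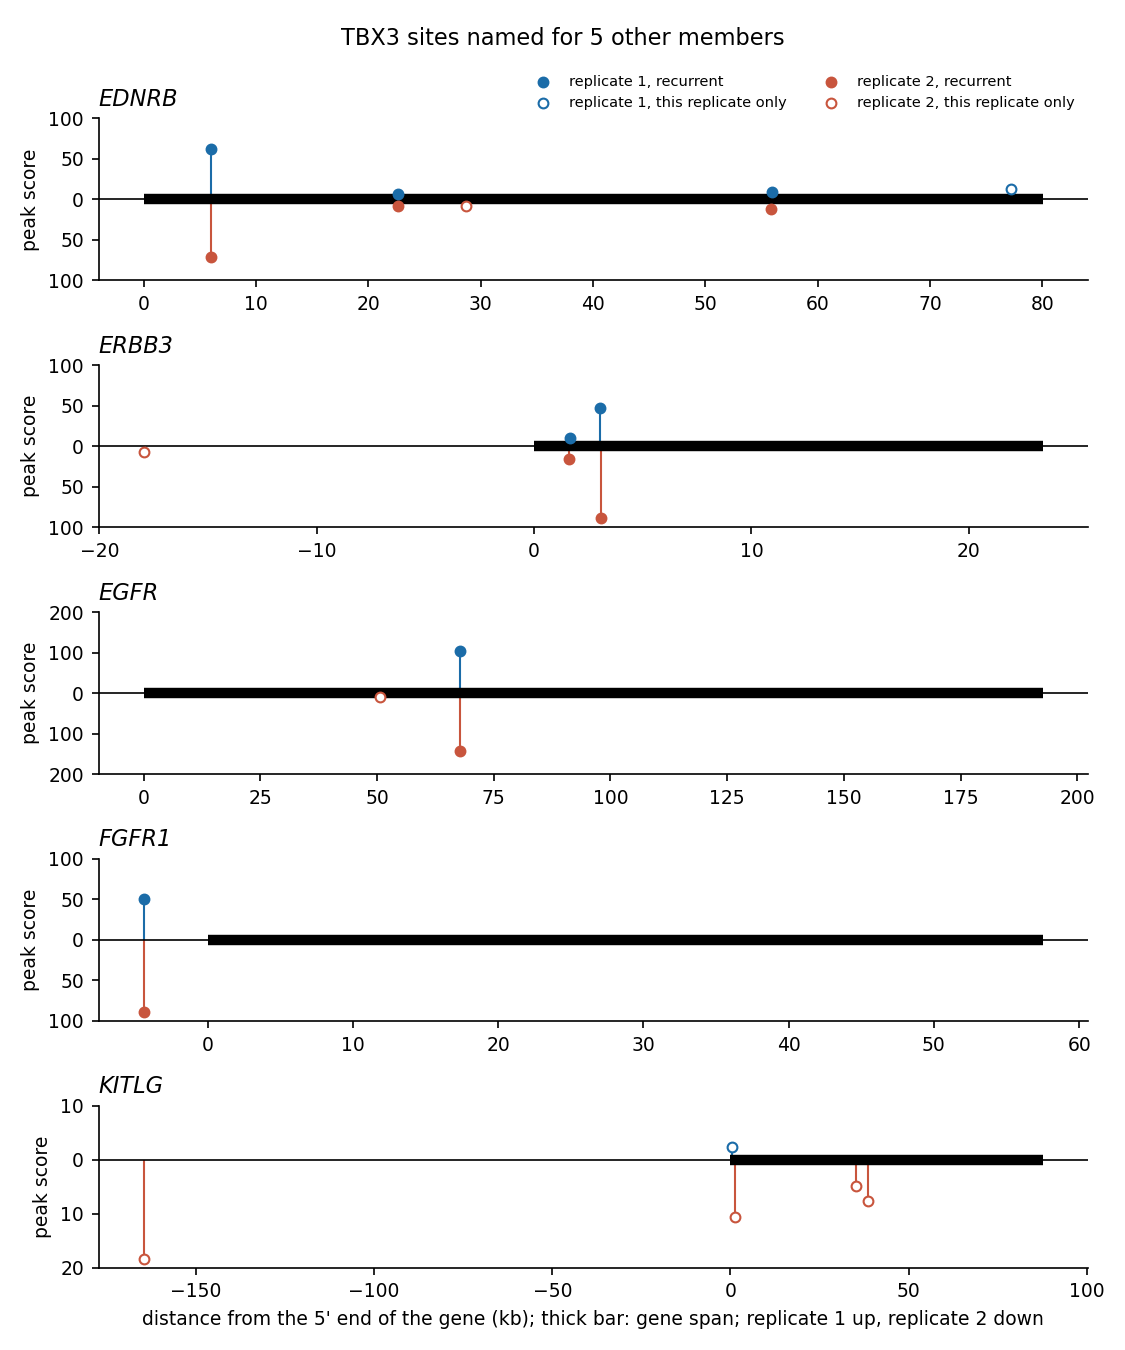
Peak score of each TBX3 summit named for EDNRB, ERBB3, EGFR, FGFR1 and KITLG against distance in kb from the 5′ end of the gene, with replicate 1 upward in blue, replicate 2 downward in red, filled points for recurrent summits and the gene span as a thick bar. EDNRB, ERBB3, EGFR and FGFR1 each have 1 region that scored 47.3 or more in both replicates, whereas KITLG has none above 18.3.

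The median score percentile of the recurrent receptor regions was 78.2 in replicate 1 and 84.6 in replicate 2, beside 63.6 and 70.5 over all recurrent regions. For the 21 regions of the differentiation group alone, the medians were 68.5 and 83.9. Summits of the 10 genes, KITLG included, found in a single list had a median percentile of 16.9 in replicate 1 and 28.7 in replicate 2. Over all single-list summits the medians were 20.8 and 26.6. The replicate scores of these 23 regions ranked alike, with a Spearman's rho of 0.94, beside 0.852 over all recurrent regions. The regions share the same pair of libraries, and the values are given as a description. The percentile was higher in replicate 2 for 20 of the 23 regions, as it was for 67% of all recurrent regions.

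**Figure D5:**
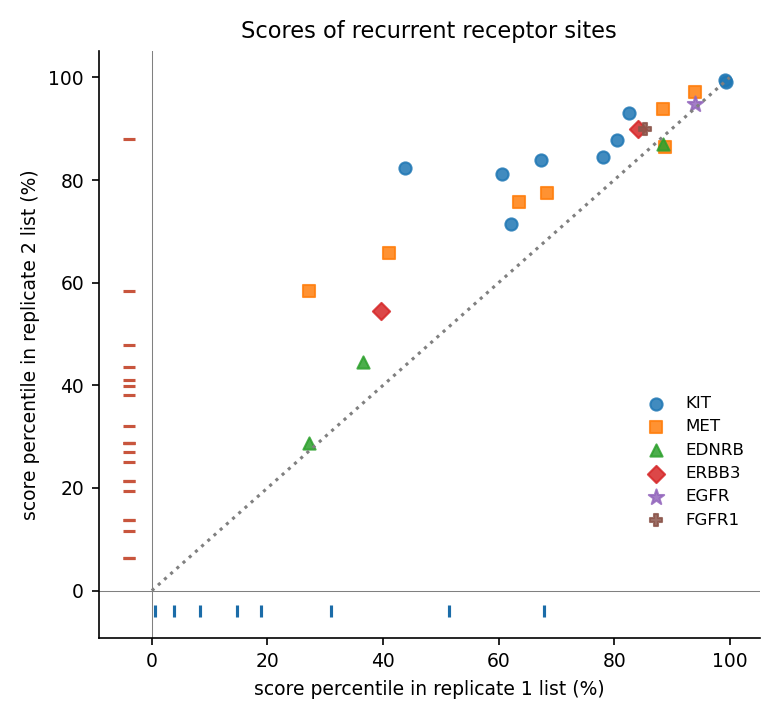
Score percentile in the replicate 2 list against that in the replicate 1 list for the 23 recurrent receptor regions, one symbol per gene, with the dotted line marking equal percentiles; ticks beside the axes are summits found in a single list. The regions lie above the line for 20 of 23, and the 2 highest KIT regions are at the upper right corner above 99 in both lists.

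Recurrent receptor regions were seldom in annotated repeats. In replicate 1, 1 of 23 lay in a repeat (4.35%, interval 0.772% to 21%), and in replicate 2, 2 of 23 (8.7%, 2.42% to 26.8%). Over all recurrent regions the shares were 41.7% and 41.8%. Of the summits of the 10 genes, KITLG included, in replicate 2 alone, 12 of 21 were in repeats (57.1%, 36.5% to 75.5%), beside 45.3% of all summits in that list alone. In replicate 1 alone the share was 2 of 8 (25%, 7.15% to 59.1%), beside 47%. Introns held 12 of the 23 regions (52.2%, 33% to 70.8%), beside 39.7% of all recurrent regions. Of these 12, 7 were in intron 1 of the transcript named in the annotation. The first-intron share over all recurrent regions was not computed, so no preference can be read from that count. The median distance to a start site was 36.7 kb, beside 51.1 kb over all recurrent regions.

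Other genes of the same pathways were counted by role. Of 25 ligands, 11 had a recurrent region (44%) and 3 had one within 10 kb of a start site (12%). Of 20 related receptors, 8 had one (40%) and 3 within 10 kb (15%), and of 19 adaptors and signal carriers, 10 had one (52.6%) and 4 within 10 kb (21.1%). These shares can be read against the 28.6% and 10.1% of protein-coding genes given above, and no test was run on them. The median number of recurrent regions was 0 for the ligands and the related receptors and 1 for the adaptors, and it was 0 over all protein-coding genes.

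Among the related receptors, MERTK, which belongs to the same family as AXL, had the lowest rank sum within 10 kb. On chromosome 2, its region in intron 1 of 18 (111906626 and 111906593) scored 133 (rank 1242) and 225 (rank 1003), and MERTK had 5 recurrent regions. AXL had none, but 0 was also the median over protein-coding genes. The interval around MERTK was not measured, so the 2 counts cannot be compared for the space around each gene. SORT1, a co-receptor of NGFR for immature neurotrophins, had a region in its 5′ untranslated region with scores of 40.1 and 30.4. FGFR2, a paralog of FGFR1, had one in intron 6 of 17, 1258 and 1282 bp from a start site, with scores of 11.6 and 20.2.

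Among the adaptors, LRIG1, a negative regulator of EGFR-family receptors, had a promoter region at 66501275 and 66501273 on chromosome 3, 854 and 852 bp upstream of its start. It scored 171 (rank 772) and 117 (rank 2815). IRS2, a substrate of the insulin receptor, had a promoter region with scores of 122 and 117, and GAB2, a docking protein of receptor kinases, had one in intron 1 with scores of 37.2 and 87.7. The promoter regions of LRIG1 and IRS2 thus scored higher in both replicates than that of MET, at 64.3 and 67.4.

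Among the ligands, the named regions near start sites scored at most 28.2 in either replicate. PROS1, a ligand of the AXL family, had a region 210 bp from its start with scores of 28.2 and 18.5, NRG2, a neuregulin, had one with scores of 19.3 and 25.2, and FGF1 had one with scores of 11.7 and 16.9. PROS1 had 27 recurrent regions in all, but 25 of them lay in satellite repeats.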

How the data were processed

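Binding of TBX3-3xHA was measured by ChIP-seq in 501mel cells. Per the file headers, the summits of each ChIP sample were annotated separately with annotatePeaks.pl of HOMER on hg38. The submitters' processing notes name FastQC 0.11.7, cutadapt 2.8, Bowtie2 2.3.5, MACS2 2.1.2 and SAMtools 1.9. The peak score is the authors' deposited value of each peak, on a scale not stated in the headers, and served only to describe and rank peaks within a list. The distance to the start site, the annotation and the nearest gene were deposited too. Read depth, caller settings and threshold are not given in the sources used here.

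Summits were paired with Python 3.11.15 and pandas 2.3.3 when each was the other's nearest and they lay within 200 bp. On simulated data, partners were planted closer than the 200 bp limit, so their recovery of 99.8% was largely set by the design. Unrelated summits were replicate 1 summits moved along the chromosome, and 1.49% of them were paired. These values are not error rates of the real lists. Gene identifiers were matched to the RefSeq table of GRCh38.p14 (12420 of 12468), which also gave gene spans. Intervals, where given, are 95% Wilson intervals. No test was run. For each gene the region nearest to a start and the one with the lowest rank sum are given in full, and 3 genes per pathway list are named by rank sum. The genes, lists and motifs were chosen with earlier results of these data known. Alternatives covered pairing distance, score limits, gene spans, repeats, distance to the start and each replicate alone.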

Additional observations from a re-analysis of the deposited data

How the results depend on the processing

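Over 78 alternatives for the summary values, 58 stayed within 1.5 times the main count or within the interval of the main value, and 20 moved further. Counts and shares cannot be negative, so no direction could be followed for them. The difference between the receptor groups and the rho could have turned negative, and neither did. The cause of the changes was not tested, except that fewer summits enter where scores, spans or repeats limit them. The differentiation group had the higher mean per gene in all 11 alternatives, and in 7 of them the 2 groups of receptors stayed apart. They met, with EDNRB, ERBB3 and EGFR all at 1 region, within 50 bp, at or above the median score and in the highest 25% of scores. They also met within 50 kb of the gene span, with ERBB3 and EGFR at 3, an alternative chosen after seeing the data. With the highest 25% of scores there were 12 recurrent regions, 10 of them in the differentiation group and a mean difference of 2.25 per gene, a rho of 0.739 and 17 pathway genes. Inside gene spans there were 14 regions, 13 in the differentiation group, a difference of 3 per gene, and 2 genes within 10 kb of a start, as there were 2 within 1 kb. The share that recurred in replicate 1 was 54.8% within 50 bp, 89.5% above the median and 100% in the highest 25%. For replicate 2 these were 73.9% above the median, 66.7% in the highest 25% and 70% outside repeats. The shares over all summits were not computed at these settings, so these values cannot be read as particular to the 10 genes. With replicate 1 alone there were 31 summits and with replicate 2 alone 44. That gave 28 to 37 in the differentiation group and 1 to 2 in the invasive group, with differences of 6.75 to 8.75 per gene and 5 genes within 10 kb in either. No paired analysis was possible because the result comes from no test, and files of the input samples were not used.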
